A study of Mus musculus with 18 samples.

Results

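The genes described here encode the proteins of the mitochondrial ribosome in the left ventricle of AngII-infused mice. They were chosen by name alone, as protein-coding mouse genes whose symbol starts with Mrpl or Mrps and a number, and 78 of the 51435 genes in the deposited tables met this rule (49 Mrpl and 29 Mrps). Another 5 genes with such a symbol are annotated as pseudogenes and were left out. All 78 had more than 1 count in total and entered every test. RNA-seq of poly(A)-selected RNA covered 9 WT and 9 WWP2Mut/Mut mice, with no mouse left uninfused. The mutants, made with CRISPR/Cas9 on C57BL/6J, lack 4 bases of the second exon of both copies of Wwp2, a ubiquitin ligase gene, and the WT mice were littermates. Every mouse of both genotypes received AngII, a peptide hormone that raises blood pressure, at 500 ng/kg/min from a subcutaneous pump for 28 days from the age of 8 weeks.

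The mitochondrial ribosome translates the few messenger RNAs made from mitochondrial DNA, all of which encode subunits of the respiratory chain and ATP synthase. Its ribosomal RNAs are also made from mitochondrial DNA, whereas every one of its proteins is encoded in the nucleus, translated in the cytosol and imported. Ventricular cardiomyocytes are densely packed with mitochondria, and inherited defects of several of these proteins, MRPL3 and MRPL44 among them, are known to cause cardiomyopathy. Low-numbered members carry the number of a bacterial ribosomal protein (Mrpl1 to Mrpl36 and Mrps2 to Mrps21, 44 genes here), and most of the 34 higher-numbered members have no bacterial counterpart. Names do not always give the place: the products of Mrps18a and Mrps30 sit in the large subunit, and the product of Mrps36 is now placed in the α-ketoglutarate dehydrogenase complex rather than the ribosome.

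The members lie on 17 chromosomes. RefSeq promoter windows of the files' build (GRCm38.p6, 250 bases before to 50 after a start site) were matched by symbol for 69 of the 78 genes, giving 75 windows. Their mean GC content was 59.0%, compared with 53.8% over all 32851 windows. Letters typical of 3 factors known to act on nuclear genes for mitochondria were searched on both strands. The ETS-factor motif CCGGAAGT stood in 12 of 75 member windows (16%) and in 3.89% of all windows, the NRF1 motif GCGCATGCG in 7 (9.33%) and 1.75%, and the YY1 motif AAGATGGCG in 8 (10.7%) and 1.40%. At least 1 of the 3 was present in 26 member windows (34.7%) and in 6.69% of all windows, and Mrps27 had both the ETS-factor and the YY1 motif. Of the other letters searched, the CREB-family motif TGACGTCA stood in 2 member windows (2.67% against 1.79%), the ERR-family motif TCAAGGTCA in 0 (0.423% of all windows), and the TATA box TATAAA in 5 (6.67% against 13.6%). These are matches of letters in a window and carry no measurement of binding.

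4 windows are shown because they belong to members that the results turn on or that hold 1 motif of each kind, with the motif in capitals on whichever strand it stood. Mrpl42, the member with the highest level, lies on the minus strand (chr10:95501900-95502199), and its YY1 motif begins 27 bases after the start site. Mrpl52, which has the steepest slope on gene body coverage below, lies on the plus strand (chr14:54426659-54426958), with the ETS-factor motif as its reverse complement 1 base after the start. Mrpl10, which encodes a protein of the ribosomal stalk, lies on the plus strand (chr11:97041332-97041631), with the NRF1 motif as its reverse complement 135 bases before the start. Mrps11 lies on the plus strand (chr7:78782881-78783180), with the YY1 motif as its reverse complement 108 bases before the start. Its exons share 173 bases with those of another member, Mrpl46, on the opposite strand.
Mrpl42: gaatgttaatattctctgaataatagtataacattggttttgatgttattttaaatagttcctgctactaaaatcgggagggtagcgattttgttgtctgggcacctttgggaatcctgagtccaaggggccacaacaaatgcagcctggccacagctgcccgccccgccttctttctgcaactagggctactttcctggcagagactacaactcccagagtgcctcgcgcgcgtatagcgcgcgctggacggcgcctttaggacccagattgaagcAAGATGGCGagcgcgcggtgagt
Mrpl52: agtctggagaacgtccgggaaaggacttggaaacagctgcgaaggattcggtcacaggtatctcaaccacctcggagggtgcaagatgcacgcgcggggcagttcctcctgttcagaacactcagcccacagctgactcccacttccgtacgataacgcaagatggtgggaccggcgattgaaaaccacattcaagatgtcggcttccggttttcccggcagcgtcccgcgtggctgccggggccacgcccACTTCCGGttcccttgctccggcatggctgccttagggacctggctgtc
Mrpl10: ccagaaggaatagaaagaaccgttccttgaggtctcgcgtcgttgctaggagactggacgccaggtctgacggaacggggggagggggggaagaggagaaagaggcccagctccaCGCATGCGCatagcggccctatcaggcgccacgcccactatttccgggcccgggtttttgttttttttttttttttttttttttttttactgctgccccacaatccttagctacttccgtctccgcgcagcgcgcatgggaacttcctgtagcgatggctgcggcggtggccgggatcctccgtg
Mrps11: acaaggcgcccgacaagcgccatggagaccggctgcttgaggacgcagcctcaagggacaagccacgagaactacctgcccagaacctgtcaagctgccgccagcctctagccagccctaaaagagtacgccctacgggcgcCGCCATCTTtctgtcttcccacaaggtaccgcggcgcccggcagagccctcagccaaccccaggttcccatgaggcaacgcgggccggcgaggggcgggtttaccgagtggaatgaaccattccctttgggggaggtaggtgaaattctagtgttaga

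Some members had a close neighbour. For 18 of 78 members (23.1%), another protein-coding gene started within 1000 bases on the opposite strand and ran the other way, compared with 6.77% of the 21780 protein-coding genes of the annotation. These head-to-head pairs included Mrps12 with Sars2, which encodes mitochondrial seryl-tRNA synthetase (172 bases between the 5′ ends), Mrps27 with Ptcd2, which encodes a mitochondrial RNA-processing protein (81 bases), and Mrpl49 with Fau, which encodes a cytosolic ribosomal protein (59 bases). The levels of paired genes were close in some pairs, such as Mrps27 (mean TPM 22.7) and Ptcd2 (27.1), and far apart in others: Mrpl57 had a mean TPM of 9.49 and its neighbour Ska3 0.0794, whereas Mrpl49 had 19.99 and Fau 383.6.

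The deposited expected counts summed to 24566994 to 37451087 per mouse. Wwp2 was lower in WWP2Mut/Mut, with TPM of 1.19 to 3.00 (median 1.58) against 3.83 to 6.01 (median 5.10) in WT, and the genotypes did not overlap (log2 fold change −1.40, SE 0.157, adjusted p = 0.001129, edgeR; two-sided exact permutation test of TPM, p = 4.11e-05, the smallest that 9 against 9 allows). The deposited TPM summed to 671770 to 826381 per mouse, because mitochondrial and rRNA genes had been removed from the table. Cardiomyocyte markers such as Myh6, Tnnt2 and Ttn summed to TPM of 38635 to 48371 in every library. All 8 of the liver markers had an unadjusted p below 0.05 and were lower in WWP2Mut/Mut (summed TPM 2.53 to 341.5 in WT and 4.02 to 63.6 in WWP2Mut/Mut), although Apoa1, Serpina1c, Fgb and Mup3 were each listed at 0 in at least 1 WT library. Of the other cell type markers, Tagln of smooth muscle was higher (log2 fold change 0.48) and Plin1 of adipocytes lower (−1.63) at an unadjusted p below 0.05. By that criterion 1.09% of all genes were higher and 2.57% lower. Of 6 smooth muscle and pericyte markers, 4 had a positive value, and Rgs5 (−0.05) and Pdgfrb (−0.02) did not. Of 6 adipocyte markers, only Fabp4 was positive (0.14), at a mean TPM of 621.3 in WT. Plin1 lay near 0, with a mean TPM of 0.18 in WT and 0.05 in WWP2Mut/Mut. In whole ventricle, fewer cells of a type and less RNA per cell cannot be told apart. 1 WT library, 43-3, has an RNA concentration of 1.68 ng/µl in the deposited sample table, where the others have 88.6 to 320.9. RNA concentration was 110.1 ± 51.5 ng/µl in WT and 175 ± 73.6 ng/µl in WWP2Mut/Mut (SD, n = 9 each). The part of the liver markers and of RNA concentration in the results was not tested beyond the genotype fits with and without them below.

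Every member was expressed in every mouse, with at least 375 expected counts in each library. Mean TPM, which is scaled per transcript length, ran from 8.98 for Mrpl1 to 470.1 for Mrpl42, with a median of 49.9 over the 78 members and 0.623 over the 24804 genes tested. Large-subunit and small-subunit genes lay at similar levels (median of the mean TPM 51.8 over 51 genes and 49.0 over 26), leaving Mrps36 aside. The 44 members with a bacterial number had a median of 51.8 and the 34 others 35.6, with wide overlap (8.98 to 252.3 and 9.49 to 470.1). Together the members took 0.624% to 0.800% of the deposited TPM in WT mice and 0.621% to 0.748% in WWP2Mut/Mut.

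The 5 highest members were Mrpl42, Mrps21, Mrpl30, Mrpl33 and Mrpl12. Mrpl42, a large-subunit gene with no bacterial counterpart, stood alone at the top with TPM of 406.9 to 540.3 in WT (median 474.9) and 411.7 to 533.6 in WWP2Mut/Mut (median 458.6). Mrps21, of the small subunit, had 201.2 to 294.1 in WT (median 234.0) and 181.6 to 310.6 in WWP2Mut/Mut (median 270.4), below every value of Mrpl42. Mrpl30 had 188.7 to 280.4 in WT (median 256.0) and 200.7 to 274.4 in WWP2Mut/Mut (median 249.0), inside the spread of Mrps21. Mrpl33 (134.1 to 239.4 over all mice) and Mrpl12 (123.8 to 225.9) overlapped each other and Mrpl30. The product of Mrpl12 forms the flexible stalk that recruits translation factors, and mRNA for it thus stood well above that for its stalk partner Mrpl10 (18.6 to 42.8).

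At the other end were Mrps22, Mrps2, Mrpl19, Mrpl57 and Mrpl1, and the values of each overlapped those of the next in order. Mrps22, whose human counterpart is linked to cardiomyopathy, had TPM of 9.15 to 23.5 in WT (median 16.7) and 9.40 to 17.5 in WWP2Mut/Mut (median 13.5). Mrpl19 had 6.06 to 21.5 in WT (median 10.3) and 3.02 to 15.1 in WWP2Mut/Mut (median 9.39). In TPM, Mrpl19 was also the most variable member, with a coefficient of variation of 45.9% over the 18 mice, and Mrps2 (29.5%) and Mrpl1 (29.2%) came next. The steadiest in TPM was Mrps15 (7.57%), a small-subunit gene with values of 42.3 to 60.7. The order was another one in TMM-normalized log2 CPM, where Mrps15 ran from 5.46 to 6.27 and Mrps5 from 5.19 to 5.60, and Mrpl19 (4.37 to 5.43) spanned less than Mrpl33 (5.73 to 7.09). Over the 78 members the median coefficient of variation was 13.4%, compared with 19.2% over the 4276 genes in the same range of mean TPM.

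**Figure D1:**
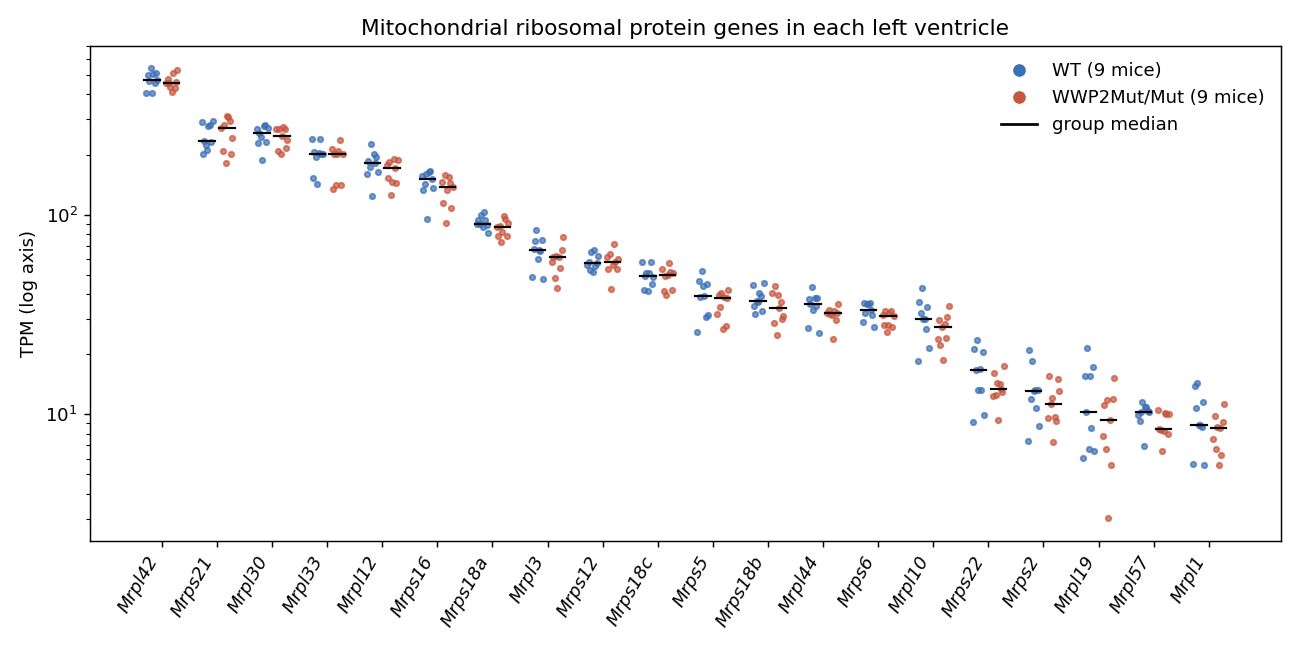
TPM on a log axis in each of 9 WT (blue) and 9 WWP2Mut/Mut (red) left ventricles for the 5 highest members, 12 members with a known role and the 5 lowest, with a black line at the group median (Mrpl12 and Mrps22 belong to more than 1 of these groups). The levels span 3.02 to 540.3, and the genotypes overlap for every gene shown.

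The 12 members with a known role were spread over this range, from Mrpl12 and Mrps16 near the top to Mrps22 near the bottom. Mrpl3, at the peptidyl transferase side of the large subunit, had TPM of 47.5 to 84.2 in WT (median 66.2) and 43.03 to 77.0 in WWP2Mut/Mut (median 61.5). Mrpl44 had 25.5 to 43.5 (median 35.7) and 23.98 to 35.8 (median 32.0). Mrps5 and Mrps12 belong to the part of the small subunit that reads the codon, and had medians of 39.2 and 57.0 in WT and 38.5 and 58.2 in WWP2Mut/Mut. The mammalian nucleus holds 3 genes for counterparts of bacterial S18, and they were expressed at unequal levels: Mrps18a had 72.8 to 102.7 over all mice, Mrps18c 39.6 to 58.0 and Mrps18b 24.97 to 45.3. Mrps18a was thus above both others without overlap, whereas Mrps18b and Mrps18c overlapped.

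Several levels are uncertain because reads are shared with near-identical sequence. For 18 members, a processed pseudogene elsewhere aligned over at least 250 bases at 95% identity or more. The clearest case was Mrpl23 on chromosome 7, for which Mrpl23-ps1 on chromosome 2 was identical over 540 aligned bases and carried a mean of 203.5 expected counts of its own (mean TPM 11.2, against 85.8 for Mrpl23). Mrpl42, Mrpl48, Mrpl51, Mrps33 and Mrps36 also had such a copy and fractional expected counts in all 18 mice, which show that reads were divided between genes, and the highest copy of each had a mean TPM of 0.664 to 1.36. Mrpl53, Mrps34, Mrps6 and Mrps24 share exonic bases with another protein-coding gene on the same strand, 695 of 790 for Mrpl53 with Gm42688. Overlaps on the opposite strand are frequent (4590 exonic bases of Mrps25 with Nr2c2, for example). The library kit keeps strand, and whether the counting used it is not given in the sources used here.

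The comparison of genotypes asked whether the Wwp2 mutation changed these genes under AngII. The study reports that the mutants lack the full-length and N-terminal WWP2 proteins, and that the C-terminal protein is retained in the heart. None of the 78 members passed the test: 0 were called at an adjusted p below 0.05 (0.00403% of all genes tested, namely Wwp2 itself), and 0 had an unadjusted p below 0.05 in either direction (edgeR), compared with 1.09% of all genes higher in WWP2Mut/Mut and 2.57% lower. DESeq2 likewise gave 0 members by either criterion. The smallest unadjusted p was 0.113, for Mrpl51 (log2 fold change 0.23, SE 0.139, adjusted p = 1.0, edgeR). Standard errors of the log2 fold change ran from 0.086 to 0.227 with a median of 0.130, and the 95% interval of 63 members lay inside −0.5 to 0.5. No interval reached 1 in either direction, the widest range of values allowed being −0.36 for Mrpl53 and 0.72 for Mrpl52.

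**Figure D2:**
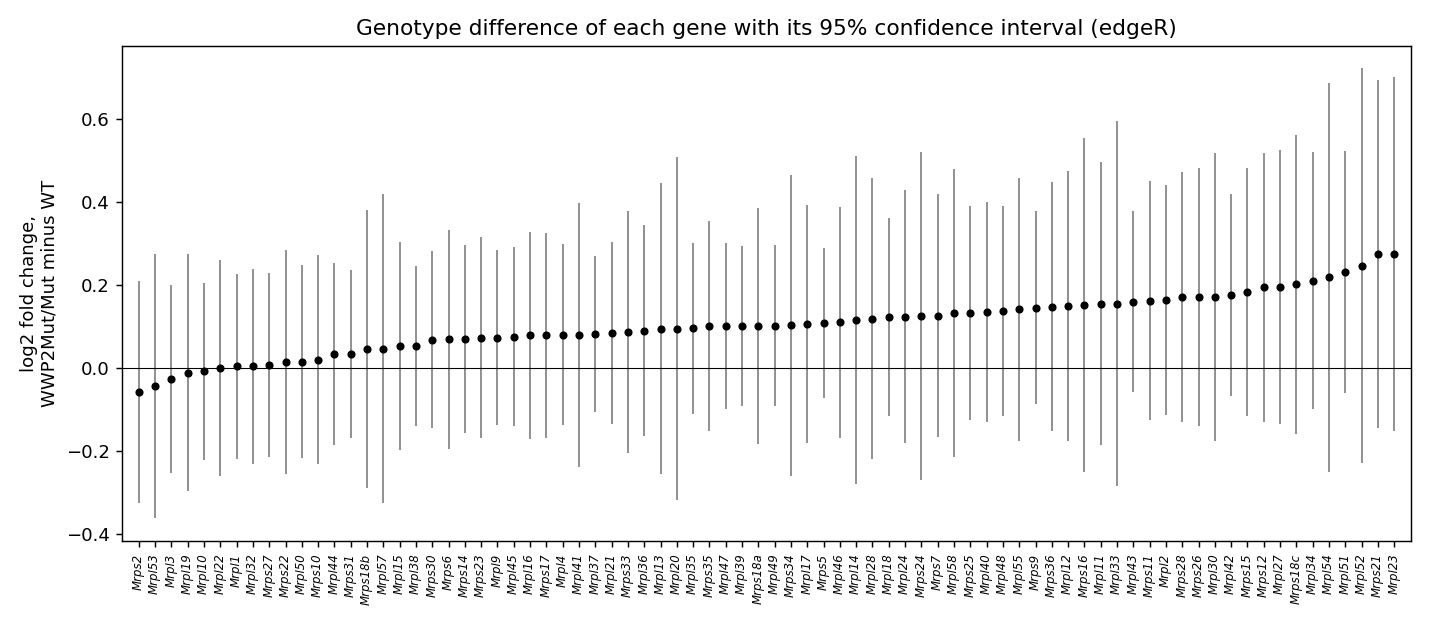
Log2 fold change (WWP2Mut/Mut minus WT, edgeR on expected counts with lane and RNA concentration) of each of the 78 genes, ordered by value, with the 95% confidence interval as a grey line. All 78 intervals include 0, 72 points lie above 0, and the values run from −0.06 to 0.28.

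The point estimates leaned one way on the count scale. 72 of 78 members had a log2 fold change above 0, compared with 48.1% of all genes, and the median was 0.10 against −0.01 over all genes. The lean was alike in both subunits (median 0.10 for 51 large-subunit and 0.10 for 26 small-subunit genes). The highest values belonged to Mrpl23 (0.28, SE 0.204), with its identical copy, Mrps21 (0.27, SE 0.200) and Mrpl52 (0.25, SE 0.227). The lowest were Mrps2 (−0.06, SE 0.127), Mrpl53 (−0.04, SE 0.152) and Mrpl3 (−0.03, SE 0.108). Members are not replicates of a genotype, and their estimates moved together when a mouse was removed.

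The signs of the estimates differed with the unit, for all genes as for the members. In TPM without covariates, 76 of 78 members had the higher mean in WT, a larger share than the 75.4% of all genes. The summed TPM of the members was 5472 ± 448 in WT and 5157 ± 501 in WWP2Mut/Mut (SD, n = 9 each). With limma on log2(TPM + 1) and the same covariates, 19 of 78 (24.4%) had a positive value, close to the 26.1% of all genes, and the median was −0.06 against −0.04 over all genes. Only Mrpl22, a large-subunit gene, had an unadjusted p below 0.05 in that fit, where 4.02% of all genes were lower and 0.548% higher by that criterion (log2 difference −0.17, lower in WWP2Mut/Mut), and its value in counts was 0.00 (SE 0.124). As shares of the expected counts, the members took 0.549% ± 0.036 in WT and 0.544% ± 0.055 in WWP2Mut/Mut (SD, n = 9 each). TPM of the genotypes overlapped for every member, and did not overlap for 0.00403% of all genes, namely Wwp2.

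The direction also differed between sequencing lanes. On the TMM-normalized log2 CPM scale, the median over members of the within-lane difference (WWP2Mut/Mut minus WT) was −0.33 in lane 1, 0.25 in lane 2, 0.25 in lane 3 and −0.04 in lane 4, with 4, 76, 72 and 24 of 78 members above 0. Each lane held 2 or 3 mice of a genotype, and the median over all genes on that scale was 0.00 in each. In log2 TPM the members' medians were −0.20, 0.03, −0.11 and −0.12 in lanes 1, 2, 3 and 4, with 12, 45, 17 and 2 of 78 above 0. Single mice carried much of the lean on the count scale: the median log2 fold change fell to 0.03 without WWP2Mut/Mut 53-1 (54 members above 0) and to 0.04 without WT 45-1. It rose to 0.17 without WT 16-1 and 0.15 without WWP2Mut/Mut 33-1. With summed liver markers as a covariate it was 0.19, and with gene body coverage 0.05. Without RNA concentration it was 0.05 with lane alone (62 members above 0) and 0.04 with no covariates (61 above 0).

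**Figure D3:**
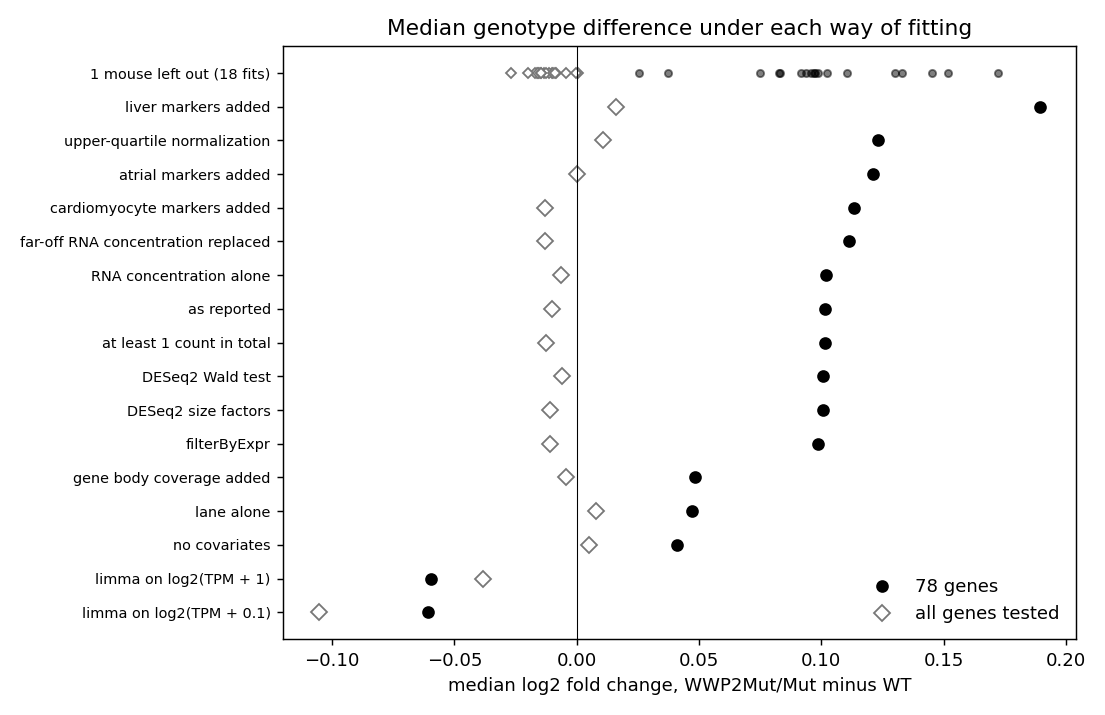
Median log2 fold change (WWP2Mut/Mut minus WT) of the 78 genes (filled circles) and of all genes tested (open diamonds) under each way of fitting, with the 18 fits that leave out 1 mouse in the top line. Every count-based fit puts the members above 0 (0.03 to 0.19), and both fits on TPM put them below (−0.06).

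Counts of the members moved with a value deposited for each library. The deposited sample table gives a gene body coverage value per mouse, between 0.0288 and 0.05398, headed in the table as the 'bottomhalf' of the gene body, whose definition is not given in the sources used here. It was 0.0387 ± 0.0086 in WT and 0.0401 ± 0.0082 in WWP2Mut/Mut (SD, n = 9 each). It was fitted, after the data had been seen, as a slope beside lane, RNA concentration and genotype. Per SD of coverage, 46 of 78 members (59.0%) were called higher at an adjusted p below 0.05, compared with 14.8% of all genes, and 3 (3.85%) were called lower, compared with 16.1% (edgeR). The share called higher was 34.2% among expressed genes in the members' range of length and 62.7% among those shorter than the members' median, both described below. Neither set is matched to the lengths of the members. The slope describes these libraries and not a treatment, and why the counts moved with coverage was not tested.

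Mrpl52, of the large subunit, had the steepest slope. Its log2 CPM was 4.46 to 5.12 in the 8 mice of lowest coverage, a split chosen after the values were seen, and 5.32 to 5.79 in 9 of the other 10, the exception being WT 45-1 at 4.58 (slope 0.43 per SD, SE 0.063, adjusted p = 3.7e-05, edgeR). Mrpl54 (0.40) and Mrpl23 (0.39) came next. Mrps21, the second most abundant member, had 6.13 to 6.60 in the same 8 mice and 6.68 to 7.23 in 9 of the other 10, again with WT 45-1 apart at 6.13 (slope 0.38, SE 0.053, adjusted p = 2.1e-05, edgeR). Mrpl33 (0.37) followed. Among the members with a fixed role, 7 of 12 were called higher and 0 lower, where 14.8% and 16.1% of all genes were, with slopes of 0.31 for Mrps18b, 0.30 for Mrps16, 0.29 for Mrps18c and 0.25 for Mrps12.

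The 3 members called lower were Mrps2, Mrpl19 and Mrpl50. This count rested on single mice: it was 1 without WT 25-3, WT 94-2, WWP2Mut/Mut 1-2 or WWP2Mut/Mut 33-1, and 7 without WWP2Mut/Mut 53-1. Mrps2 had a log2 CPM of 4.97 to 5.61 in the 8 mice of lowest coverage and 4.54 to 5.15 in the other 10, so the values overlapped (slope −0.18, SE 0.046, adjusted p = 0.004684, edgeR). Mrpl19 had 4.92 to 5.43 and 4.37 to 5.12 (slope −0.17, SE 0.054, adjusted p = 0.02515, edgeR). Mrpl50 had a slope of −0.12 (SE 0.043, adjusted p = 0.0377, edgeR), and Mrps22, at −0.14 (SE 0.054), had an adjusted p of 0.06198 (edgeR).

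**Figure D4:**
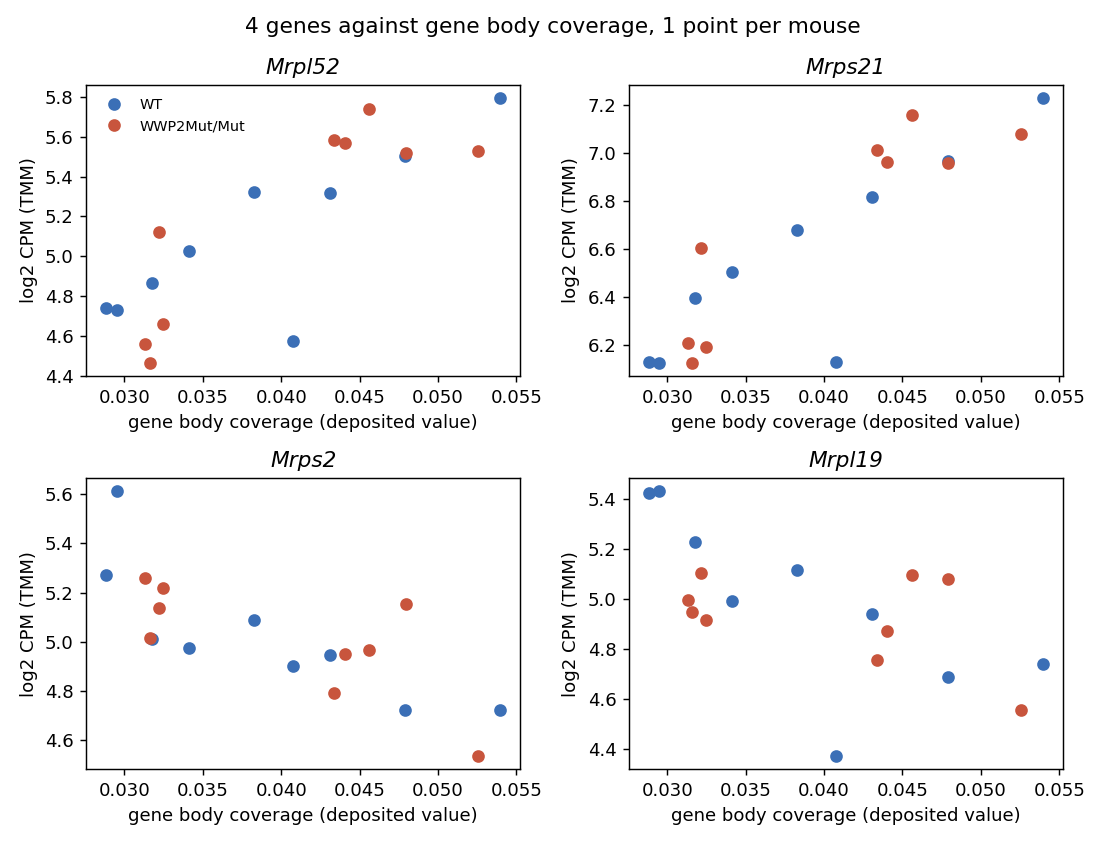
TMM-normalized log2 CPM of 4 genes (vertical axes) against the deposited gene body coverage value (horizontal axes), 1 point per mouse, WT in blue and WWP2Mut/Mut in red. Mrpl52 and Mrps21 lie higher in mice of high coverage, with WT 45-1 apart from the others, and Mrps2 and Mrpl19 lie lower.

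The slopes differed with transcript length. An effective length for each gene was taken from its expected count per TPM, relative to the median gene of the same mouse, and ran from 0.111 (Mrpl52) to 1.29 (Mrpl1) with a median of 0.386 over the members. Of the 39 shorter members, 32 were called higher and 0 lower (median slope 0.20). Of the 39 longer members, 14 were called higher and 3 lower (median slope 0.06). Among the 6987 genes with a mean TPM of at least 1 and an effective length in the range of the members, 34.2% were called higher and 17.1% lower, with a median slope of 0.07. Across the 78 members, Spearman's rho between slope and effective length was −0.66, as a description over genes that share libraries, and across all genes with a mean TPM of at least 1 it was −0.57. Among the 1559 such genes shorter than the members' median, 62.7% were called higher and 3.59% lower, with a median slope of 0.27. A fit on log2(TPM + 1) differed in unit, normalization and test at once. It called 19 members (24.4%) higher, compared with 5.12% of all genes, and 24 (30.8%) lower, compared with 26.8% (limma). The part of length in this change was not tested. The median slope on that scale was 0.01, but Mrpl52 (0.26) and Mrps21 (0.23) still had positive slopes and Mrps2 (−0.33) and Mrpl19 (−0.48) negative ones.

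**Figure D5:**
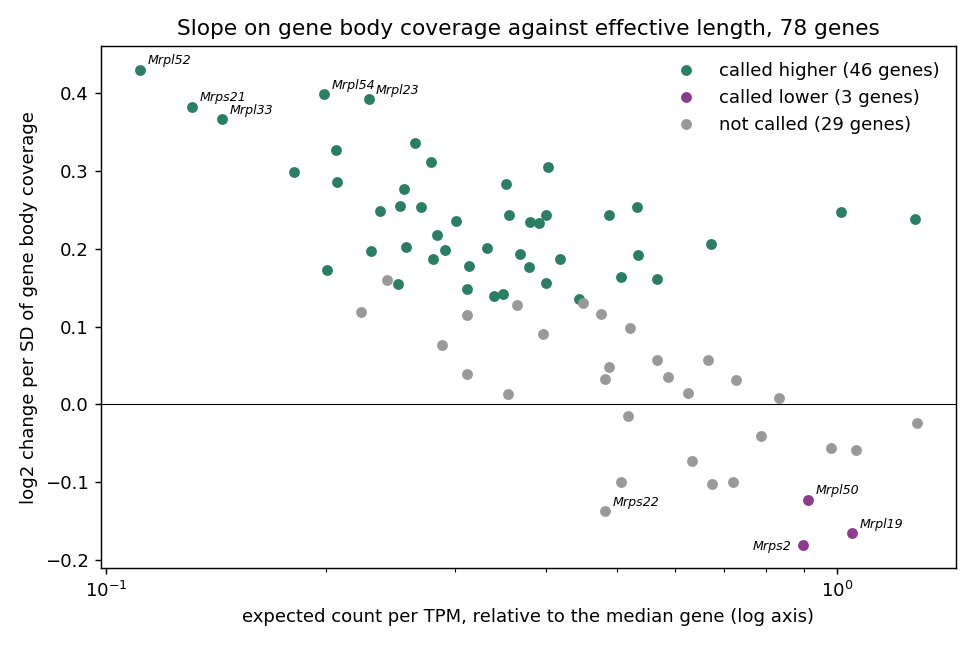
Slope on gene body coverage (log2 change per SD, vertical axis) against effective length relative to the median gene (log axis) for the 78 genes, coloured by whether the slope was called higher (46), called lower (3) or not called (29). The shortest genes, Mrpl52 and Mrps21, have slopes of 0.43 and 0.38, and the 3 called lower have relative lengths of 0.90 to 1.05.

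The slope was tested for a difference between genotypes with an interaction term. No gene was called (0% of 24804), and 0 of 78 members had an unadjusted p below 0.05, compared with 1211 of all genes (edgeR). The fits within each genotype left out lane and RNA concentration. In WT mice alone, 18 members (23.1%) were called higher and 8 (10.3%) lower, compared with 9.07% and 12.7% of all genes. Fitted in WWP2Mut/Mut mice alone, 30 (38.5%) were called higher and 0 lower, compared with 10.2% and 11.5%. Without these covariates in all 18 mice, 43 members were called higher and 7 lower, compared with 4412 and 4303 of 24804 genes.

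Neighbouring gene families had slopes in the same direction. Of 84 nuclear-encoded oxidative phosphorylation genes, 68 were called higher and 3 lower with coverage (median slope 0.30), and of 80 cytosolic ribosomal protein genes 77 and 0 (median slope 0.35). Of all genes, 14.8% were called higher and 16.1% lower. Both medians lay above the members' median of 0.16, and the differences between the families were not tested. For genotype, 80 of the 84 oxidative phosphorylation genes and 80 of the 80 cytosolic genes had a positive log2 fold change on the count scale (medians 0.19 and 0.17), as did 48.1% of all genes, with 1 and 0 at an unadjusted p below 0.05 (edgeR).

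The members varied together between mice. The median Pearson correlation over the 3003 pairs of members was 0.55 in log2(TPM + 1) over the 18 mice, compared with 0.30 over pairs of all 11336 genes with a mean TPM of at least 1. It was 0.52 in the 9 WT and 0.54 in the 9 WWP2Mut/Mut mice (0.38 and 0.17 over all genes). With lane and RNA concentration removed, it was 0.41 for the members and 0.32 for all genes. The contrast differed with the scale: in TMM-normalized log2 CPM it was 0.76 for the members and 0.00065 for all genes. Of the member pairs, 519 were negative. Mrpl12 had the highest mean correlation with the other members (0.63), followed by Mrps17 and Mrps36 (0.62 each), and Mrpl39, Mrpl23 (0.11 each) and Mrps21 (0.14) had the lowest. 35 of the 78 members had their highest TPM in WT 43-3, the library with the far-off RNA concentration, and 37 their lowest in WWP2Mut/Mut 33-1. The deposited TPM summed lowest in that last library (671770). As a share of the deposited TPM, the members were lowest in WWP2Mut/Mut 52-1 (0.621%), with 0.634% in 33-1.

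The other genes of mitochondrial translation were compared by lists. Of 6 genes under other symbols, the ribosomal proteins Dap3, Ptcd3, Aurkaip1, Chchd1 and Gadd45gip1 and the insertase Oxa1l, which binds the ribosome, 0 had an unadjusted p below 0.05 for genotype, with a median log2 fold change of 0.11. The same held for 13 translation factors (median 0.01), 20 mitochondrial aminoacyl-tRNA synthesis genes (0.02), 29 assembly and rRNA modification genes (0.03) and 24 transcription and RNA processing genes (−0.03). With coverage, 4 of these 6 genes were called higher and 0 lower, with Ptcd3 (−0.08) and Oxa1l (−0.07) not called. Of the translation factors, 1 of 13 was called higher and 5 lower, of the aminoacyl-tRNA synthesis genes 1 and 8 of 20, of the assembly genes 3 and 8 of 29 and of the transcription and RNA processing genes 4 and 10 of 24, where 14.8% of all genes were called higher and 16.1% lower. The median slopes of these 4 lists were −0.11, −0.07, 0.00 and −0.07, and their difference from the members was not tested.

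The 12 regulators of mitochondrial gene expression had a median of the mean TPM of 3.45. Of these, only Myc had an unadjusted p below 0.05 for genotype, where 2.57% of all genes were lower and 1.09% higher by that criterion. It had TPM of 0.59 to 2.82 in WT (median 1.47) and 0.64 to 1.73 in WWP2Mut/Mut (median 1.03), values that overlap (log2 fold change −0.54, SE 0.188, adjusted p = 0.9734, edgeR). Esrra, which encodes a nuclear receptor for genes of energy metabolism, was the highest (33.7 to 89.2 in WT, 38.9 to 76.2 in WWP2Mut/Mut). Gabpa, which encodes the ETS-domain subunit of GABP, had 2.72 to 11.1 in WT and 2.72 to 7.84 in WWP2Mut/Mut, Nrf1 2.23 to 6.23 and 2.30 to 4.56, and Yy1 3.43 to 7.88 and 3.27 to 7.62. The coactivator gene Ppargc1a had 2.81 to 16.8 and 2.56 to 19.0. With gene body coverage, 8 of the 12 regulators were called lower and 0 higher, where 16.1% and 14.8% of all genes were. The steepest slopes were those of Ppara (−1.39), Esrrg (−0.91) and Ppargc1a (−0.59). Of the genes for the 3 factors whose motifs were searched first, Gabpa (−0.41) and Yy1 (−0.16) were called lower, and Nrf1 was not called (−0.06, adjusted p = 0.4152, edgeR). In the list of mitochondrial stress genes, 2 of 20 were lower at an unadjusted p below 0.05, against the same 2.57% of all genes. Gdf15, which encodes a secreted stress cytokine, had TPM of 0.86 to 2.66 in WT and 0.51 to 1.43 in WWP2Mut/Mut (log2 fold change −0.55, SE 0.211, adjusted p = 1.0, edgeR). Phgdh, of serine synthesis, had 0.73 to 1.29 and 0.55 to 1.01 (−0.40, SE 0.167, adjusted p = 1.0, edgeR). The remaining 18 genes of that list did not pass an unadjusted p of 0.05.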

How the data were processed

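RNA was measured in the left ventricles of 9 WT and 9 WWP2Mut/Mut mice, grouped by the genotype in their labels, each sample being a separate mouse. The authors aligned the reads to m38 with STAR 2.5.2b, quantified Ensembl 89 genes with RSEM 1.2.31 and removed mitochondrial and rRNA genes, so the mitochondrial ribosomal RNAs were not analysed here. The deposited tables hold RSEM expected counts and TPM per gene, and a sample table holds lane, RNA concentration and gene body coverage. Symbols, biotypes and coordinates were taken from GENCODE M21 (GRCm38), which matched 51242 of 51435 identifiers.

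After rounding of the expected counts, genotype was tested in R 4.3.3 with the quasi-likelihood test of edgeR 4.0.16 after TMM normalization. The fit took in all 24804 genes whose summed count passed 1, with lane and centred RNA concentration as covariates and Benjamini-Hochberg adjustment over all genes. This filter and these covariates follow the study, which used DESeq2. Its methods give the same number of mice per genotype as the deposited tables and its results text a smaller one, and all deposited mice were used. DESeq2 1.42.0, limma 3.58.1 on log2(TPM + 1), and other normalizations, filters and covariates were the alternatives. Effective length is the expected count over TPM. Copies were found with BLAST over GENCODE transcripts. The scripts were tested on simulated counts. With expected counts of at least 375 per member and library, counting error is small beside the spread between mice.

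The members and lists were chosen with earlier results of these data known. Members named are the 5 highest and 5 lowest in mean TPM, those of a list with a fixed role, those whose reads or names raise a doubt, and up to 6 per direction with the smallest unadjusted p below 0.05. Of other lists, up to 3 genes per direction with p below 0.05, and the regulators, are named. Members named for an extreme slope, variability, correlation or fold change, and the pairs of neighbouring genes, were chosen after their values were seen. An outlying mouse was marked by Dixon's criterion for 9 values (0.493).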

Additional observations from a re-analysis of the deposited data

Results flagged for a closer look

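4 of 64 groups of 9 mice examined had a mouse far from the others by Dixon's criterion, which chance alone exceeds in about 1 of 20 groups. The groups were 29 members (those named for their level, a fixed role or a doubt about reads or name), the summed TPM and count share of the 78 genes, and Wwp2, in each genotype. 3 of the 4 concern the same mouse, WT 45-1. Its share of expected counts on the 78 genes was 0.464%, where the other WT mice had 0.530% to 0.586%. Its TPM of Mrps16 was 95.3 (others 132.3 to 165.0), and that of Mrpl57 was 6.91 (others 9.27 to 11.6). This mouse also had the highest summed liver markers (TPM 341.5), whose part in these values was not tested. Without WT 45-1, the median log2 fold change of the 78 genes was 0.04 and 59 were above 0. The fourth is the TPM of Wwp2 in WWP2Mut/Mut 52-1, 3.00, where the others of that genotype had 1.19 to 1.90, and it lay below every WT value (lowest 3.83).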

How the results depend on the processing

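No member was called at an adjusted p below 0.05 in any of the 33 alternatives to the genotype fit. At an unadjusted p below 0.05, 1 member was higher with liver markers as a covariate (Mrpl23), 0 to 2 were higher when a mouse was left out (Mrpl23 and Mrpl51 without WT 16-1, Mrpl51 without WWP2Mut/Mut 33-1), and 1 was lower with limma on log2(TPM + 1) and on log2(TPM + 0.1) (Mrpl22 in both). The count of members above 0 ranged from 54 to 77 over left-out mice and was 19 in both fits on TPM. The median log2 fold change ranged from 0.03 to 0.17 over left-out mice and was −0.0594 and −0.0606 with pseudocounts of 1 and 0.1, where the median of all genes was −0.0382 and −0.105. Of the 29 members named for their level, a fixed role or a doubt about reads or name, 16 had the other sign in each fit on TPM. The median pairwise correlation was 0.759 in TMM-normalized log2 CPM (0.00065 over all genes), 0.409 with lane and RNA concentration removed (0.316) and 0.498 to 0.568 over left-out mice. The Wwp2 difference stayed called throughout (−1.61 to −1.33 over left-out mice).

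The coverage slopes and their alternatives were chosen after seeing the data. Over left-out mice 32 to 52 members were called higher and 1 to 7 lower, while 2541 to 3950 and 3116 to 4200 of 24588 to 24709 genes were: 1 lower without WT 25-3, WT 94-2, WWP2Mut/Mut 1-2 or 33-1, and 7 lower without WWP2Mut/Mut 53-1. On log2(TPM + 1) 19 were higher and 24 lower, in WT alone 18 and 8, in WWP2Mut/Mut alone 30 and 0. With the far-off RNA concentration replaced 6 were lower, and without lane and RNA concentration 7. The fit on log2(TPM + 1) also changed the normalization and the test, and the fits in each genotype left out lane and RNA concentration. The cause of these shifts was not tested. No paired analysis was possible because the genotypes share no replicate numbers. Depth was not limiting for these genes, and with 9 mice a genotype the intervals of 63 of 78 members lie within 0.5 of 0 on the log2 scale.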
